A study of Mus musculus with 10 samples.

Results

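The genes described here are 8 mouse genes of the machinery that fixes chromosome ends to the nuclear envelope in meiotic prophase: Majin, Terb1, Terb2, Sun1, Sun2, Ccdc155 (the gene of KASH5), Cdk2 and Terf1. They were chosen by symbol, and all 8 of them were found among the 55536 genes of the count table. RNA was sequenced from oocytes of mouse fetal ovaries at E16.5, sorted alive by green fluorescence. The oocytes were Taf4b-deficient (5 libraries) or Taf4b-heterozygous (5 libraries), all labelled C57BL/6 and female. Taf4b encodes a subunit of TFIID, the general transcription factor at core promoters, that is abundant in gonads, and the question is which oocyte transcripts depend on it. Every embryo came from Taf4b-heterozygous parents homozygous for an Oct4-EGFP transgene, so oocytes of both genotypes carried the transgene, and the comparison is with oocytes that carry the mutation on one allele, not with wild type. The libraries have 3 litter dates. The labels do not say whether libraries came from separate embryos or pools, so the p-values below rest on how these libraries vary, which can include technical variation.

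In early meiotic prophase each telomere is attached to the inner nuclear membrane, and dynein in the cytoplasm then moves the attached ends along the envelope, which brings homologous chromosomes together. TERB1 binds the telomere repeat protein TRF1 (the product of Terf1) and joins TERB2 and MAJIN, which has a membrane-spanning segment and binds DNA. SUN1 crosses the inner membrane and KASH5 the outer one, so that they bridge the envelope to dynein, and CDK2 sits at the telomeres with its activator Speedy A. Mice that lack Majin, Terb1, Terb2, Sun1, KASH5 or Cdk2 are known to be infertile because meiosis fails.

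Total counts ran from 16707216 to 23680023 in deficient and from 18174863 to 26983565 in heterozygous libraries. Levels are first given in CPM, the reads of a gene per 1000000 counted in its library. Taf4b was at 74.9 ± 9.86 CPM in deficient and 174 ± 101 CPM in heterozygous libraries (SD, n = 5 each), and the library labelled heterozygous 4, at 65.7 CPM, lay within the deficient range. In TPM (transcripts per 1000000) that library, at 19.6 TPM, lay just above the deficient libraries, at 15.6 to 18.6 TPM. TPM is a level scaled by transcript length and to a total of 1000000 in each library. Within a gene, TPM and CPM differ from library to library by a factor that the 8 genes and Taf4b share. For the comparison of libraries TPM is thus another scaling, not a separate measurement. The authors' deposited fold changes are rebuilt by a 3-level grouping of the libraries, whose level 3 holds deficient 5, the library labelled heterozygous 4 and heterozygous 5. These libraries had the most RNA of erythroid markers (summed TPM of 10 genes, 326, 163 and 433), against 10.6 to 38.4 in the other libraries, while Hbb-bh1 was at 0 TPM in every library. Of the germ cell markers, 7 of 8 had a mean TPM of at least 1, and their summed TPM ran from 1267 to 1610 in deficient and from 1564 to 2270 in heterozygous libraries. Markers of somatic ovary cells and macrophages were also present, with summed TPM over all libraries of 21.7 to 104 for pregranulosa cells (6 of 10 genes with a mean of at least 1), 23.6 to 256 for stroma (3 of 8), 3.57 to 24.8 for endothelium (3 of 7), 2.24 to 12.3 for surface epithelium (3 of 6) and 147 to 426 for macrophages (8 of 8). The summed TPM of 4 Y-linked genes was at most 0.0552. In these bulk samples fewer cells that express a gene and less RNA per cell cannot be told apart.

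None of the 8 genes differed between genotypes past the threshold. By edgeR's quasi-likelihood test, fitted on all genes and adjusted by Benjamini-Hochberg, 0 of 8 had an adjusted p under 0.05, as did 0 of 19244 genes tested (0%). Taf4b itself was thus not called by this test, with a log2 fold change of -1.22 (edgeR adjusted p = 0.155). In the authors' deposited DESeq2 table its adjusted p is 1.5e-04. By edgeR, none of the 8 had an unadjusted p under 0.05, against 16.6% of all genes tested. DESeq2 called 649 genes (3.13% of those it tested) and limma voom with quality weights 510 (2.65%). Both called 0 of the 8, which at such shares does not set the 8 genes apart. Limma on TPM called 0 genes in all, so it tells nothing about the 8. The genotypes overlapped in all 8, and in 3.53% of all genes tested they did not (1.94% higher and 1.6% lower in deficient libraries). The median log2 fold change, deficient over heterozygous, was 0.06 over the 8 genes and -0.02 over all genes tested. With 5 libraries a group the intervals were wide, and differences of the sizes they span are not excluded.

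Promoter sequences from RefSeq (GRCm38.p6), each from 250 bases before to 50 after an annotated start, were matched for 5 of the 8 genes, in 6 windows, and Majin, Terb2 and Terf1 were not matched. Below are 5 of them, shown because TFIID acts at these sites and because Sun1 and Sun2 are related genes with unequal levels. Also, Terb1, Sun1, Ccdc155 and, in CPM only, Cdk2 were lowest of their genotype in the same 3 libraries. All are written 5′ to 3′ on the gene's strand, with matches to the searched motifs in capitals.
Terb1, chr8:104509838-104510137, minus strand: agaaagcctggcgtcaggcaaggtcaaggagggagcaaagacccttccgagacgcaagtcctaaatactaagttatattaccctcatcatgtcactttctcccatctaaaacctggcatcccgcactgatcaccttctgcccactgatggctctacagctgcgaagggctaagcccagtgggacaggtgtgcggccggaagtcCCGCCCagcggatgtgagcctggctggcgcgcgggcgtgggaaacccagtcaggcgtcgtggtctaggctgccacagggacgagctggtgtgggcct
Sun1, chr5:139200387-139200686, plus strand: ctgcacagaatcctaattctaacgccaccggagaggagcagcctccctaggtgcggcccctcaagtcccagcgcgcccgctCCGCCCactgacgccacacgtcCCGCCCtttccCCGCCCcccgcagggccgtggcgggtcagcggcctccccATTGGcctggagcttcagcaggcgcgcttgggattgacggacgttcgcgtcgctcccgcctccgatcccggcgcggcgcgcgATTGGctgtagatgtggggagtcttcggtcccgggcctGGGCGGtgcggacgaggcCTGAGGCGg
Sun2, chr15:79742487-79742786, minus strand: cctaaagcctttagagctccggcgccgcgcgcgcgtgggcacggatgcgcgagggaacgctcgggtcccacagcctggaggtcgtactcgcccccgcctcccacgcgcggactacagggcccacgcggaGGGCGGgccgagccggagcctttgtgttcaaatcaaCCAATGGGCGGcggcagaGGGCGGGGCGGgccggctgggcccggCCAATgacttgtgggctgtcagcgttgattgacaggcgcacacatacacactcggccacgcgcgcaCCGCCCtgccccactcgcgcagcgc
Ccdc155, chr7:45204843-45205142, minus strand: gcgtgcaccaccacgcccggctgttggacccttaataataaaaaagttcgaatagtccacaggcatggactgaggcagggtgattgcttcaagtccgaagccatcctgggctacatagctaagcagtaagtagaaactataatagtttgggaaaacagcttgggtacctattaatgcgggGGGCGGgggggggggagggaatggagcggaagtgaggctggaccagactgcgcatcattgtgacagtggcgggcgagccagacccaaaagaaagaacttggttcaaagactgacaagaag
Cdk2, chr10:128705002-128705301, minus strand: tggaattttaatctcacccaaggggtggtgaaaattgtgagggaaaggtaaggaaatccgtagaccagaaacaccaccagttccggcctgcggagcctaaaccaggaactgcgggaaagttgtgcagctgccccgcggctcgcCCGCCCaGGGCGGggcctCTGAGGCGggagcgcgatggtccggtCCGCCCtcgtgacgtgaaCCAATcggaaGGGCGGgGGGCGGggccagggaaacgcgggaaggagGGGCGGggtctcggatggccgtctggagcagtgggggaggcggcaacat
The letters searched, on both strands, were CCAAT (NF-Y), GGGCGG (SP factors), TATAAA (the core of a TATA box), CACGTG (E-box), GGCGGGAA (E2F) and CNCCTCAG (Stra8 and Meiosin).

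The promoters of the related genes Sun1 and Sun2 were alike in composition, each with 71.3% G and C, against a median of 52.7% over 32851 promoter windows in the table. The window of Sun1 held 4 SP matches, 2 NF-Y matches at -97 and -15 from the start and a Stra8 and Meiosin match at 42, and that of Sun2 held 5 SP matches and 2 NF-Y matches at -85 and -41. In Sun2 the NF-Y match at -85 runs directly into an SP match, and the SP matches at -67 and -62 share a base. Terb1, at 59.3% G and C, held 1 SP match at -47, and Ccdc155, at 52.3%, held 1 at -70. Cdk2, at 64.7%, held 6 SP matches, an NF-Y match at -45 and a Stra8 and Meiosin match at -89. A second window of Sun1, at a start within the gene, held the letters TATAAA at -214, on the opposite strand, and an NF-Y match at -209. These 2 matches share a base. Over all 6 windows SP matches were in 5 and NF-Y matches in 4, against 35.7% and 37.4% of all windows, and Stra8 and Meiosin matches were in 2, against 7.94%. The letters TATAAA were in 1 of 6 windows and in 13.6% of all. No E-box or E2F letters were in these 6 windows, and 7.15% and 2.19% of all windows hold them.

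Per length, the genes of the telomere complex had the highest means of the 8 and Sun2 was nearly silent. Over all 10 libraries the mean was 184 TPM for Majin, 144 TPM for Terb1, 60.8 TPM for Terb2, 50.8 TPM for Terf1, 44.7 TPM for Sun1, 41.3 TPM for Ccdc155, 33.1 TPM for Cdk2 and 0.673 TPM for Sun2. Majin was above Terb1 in 9 of 10 libraries, heterozygous 3 being the exception, and Terb1 was above Terb2 in 10 of 10. Terb2 was above Terf1 in 8 of 10. It was below Ccdc155 in heterozygous 1 (56.2 against 67.1 TPM) and below Sun1 in heterozygous 2 (65.6 against 68.0 TPM). The order of Terf1, Sun1, Ccdc155 and Cdk2 was not fixed, since each was above the next in only 6 of 10 libraries. Apart from the step from Cdk2 to Sun2, the ranges of all neighbours in this order overlapped.

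**Figure D1:**
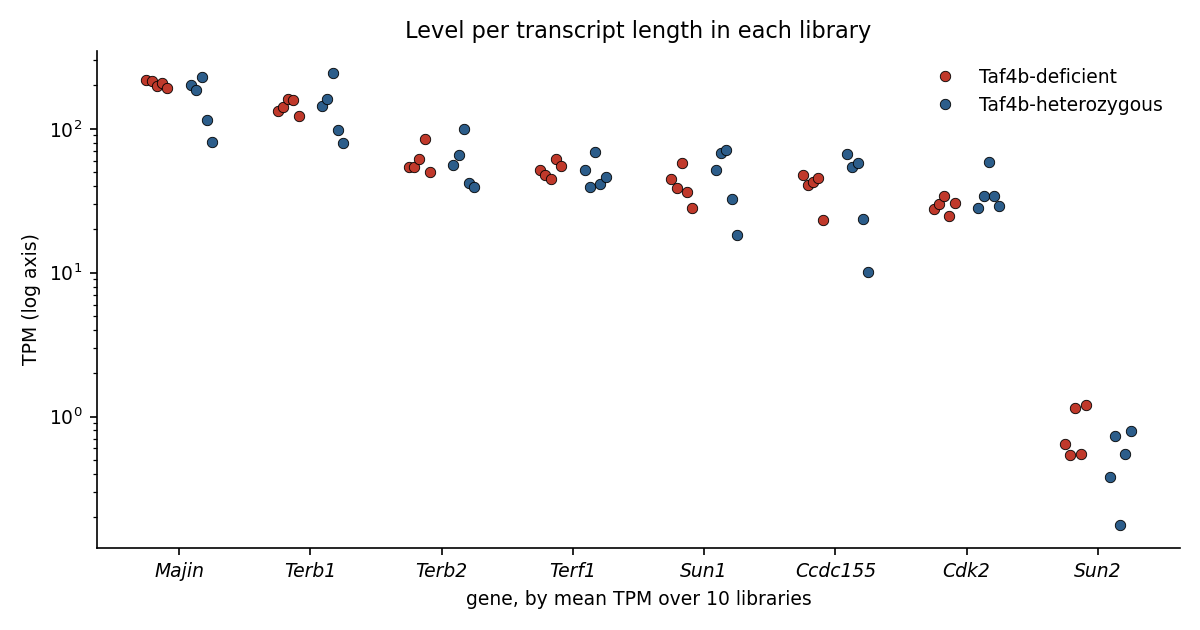
TPM of each of the 8 genes in each library on a log axis, with Taf4b-deficient libraries (red) left of Taf4b-heterozygous libraries (blue) and genes ordered by their mean over 10 libraries. The 7 genes other than Sun2 lie between 10.1 and 243 TPM, and Sun2 lies between 0.176 and 1.20 TPM.

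Majin (ENSMUSG00000024786, chromosome 19, 6184388 to 6224225, plus strand, GRCm38) encodes the DNA-binding membrane anchor of the complex. In deficient 1 to 5 it was at 290.5, 293, 281, 302 and 219 CPM, and in heterozygous 1 to 5 at 291, 227, 332, 119 and 89.4 CPM. The deficient libraries were close together, while heterozygous 5 and the library labelled heterozygous 4 lay below all of them. The mean was 277 ± 33.2 CPM in deficient and 212 ± 106 CPM in heterozygous libraries (SD, n = 5 each). The log2 fold change was 0.39 ± 0.32 (SE; 95% interval -0.30 to 1.07; edgeR adjusted p = 0.559). It was 0.20 without heterozygous 5, 0.61 without heterozygous 3 and 0.04 without the level 3 libraries, and by level of the grouping the log2 differences were 0.00076, 0.09 and 1.09. On the TPM scale the deficient libraries spanned 192 to 217 TPM and the heterozygous ones 80.3 to 229 TPM.

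Terb1 (ENSMUSG00000052616, chromosome 8, 104446719 to 104509910, minus strand) encodes the subunit that binds TRF1. It was at 434, 469.6, 560.3, 560.1 and 341 CPM in deficient 1 to 5, and at 505, 478, 856, 247 and 217 CPM in heterozygous 1 to 5. The highest and the lowest libraries were all heterozygous, and the deficient libraries lay between them. The means were 473 ± 92.3 CPM in deficient and 461 ± 257 CPM in heterozygous libraries, with a log2 fold change of 0.04 ± 0.33 (SE; 95% interval -0.68 to 0.76; edgeR adjusted p = 0.967). It turned to -0.28 without the level 3 libraries, to -0.10 without litter date 3, and was 0.38 without heterozygous 3.

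Terb2 (ENSMUSG00000027229, chromosome 2, 122186272 to 122206397, plus strand) encodes the subunit between TERB1 and MAJIN. It was at 103, 104, 123, 175 and 80.8 CPM in deficient 1 to 5, and at 114, 113, 202, 61.0 and 61.8 CPM in heterozygous 1 to 5. Here too the heterozygous libraries held both ends of the range, heterozygous 3 at the top. The log2 fold change was 0.09 ± 0.32 (SE; 95% interval -0.61 to 0.78; edgeR adjusted p = 0.919). It was -0.10 without deficient 4, 0.41 without heterozygous 3 and -0.18 without the level 3 libraries.

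The mean ratio of Terb1 to Terb2 TPM was close between genotypes, at 2.40 ± 0.319 in deficient and 2.37 ± 0.203 in heterozygous libraries (SD, n = 5 each). Over all libraries it ran from 1.85 in deficient 4 to 2.64 in deficient 3. The pair differed least of the 8 genes in pattern over the libraries, by 0.16 log2 units (root mean square). The next closest pair was Majin and Terb1, at 0.25 log2 units. The ratio of Majin to Terb1 TPM was 1.45 ± 0.174 in deficient libraries, from 1.22 to 1.63, and 1.13 ± 0.18 in heterozygous libraries, from 0.944 to 1.41. In 4 of 5 heterozygous libraries it lay below every deficient library, and heterozygous 1 fell within the deficient range. The ratio of Majin to Terb2 TPM overlapped more, from 2.43 to 3.98 in deficient and from 2.03 to 3.60 in heterozygous libraries. These ratios were not tested.

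**Figure D2:**
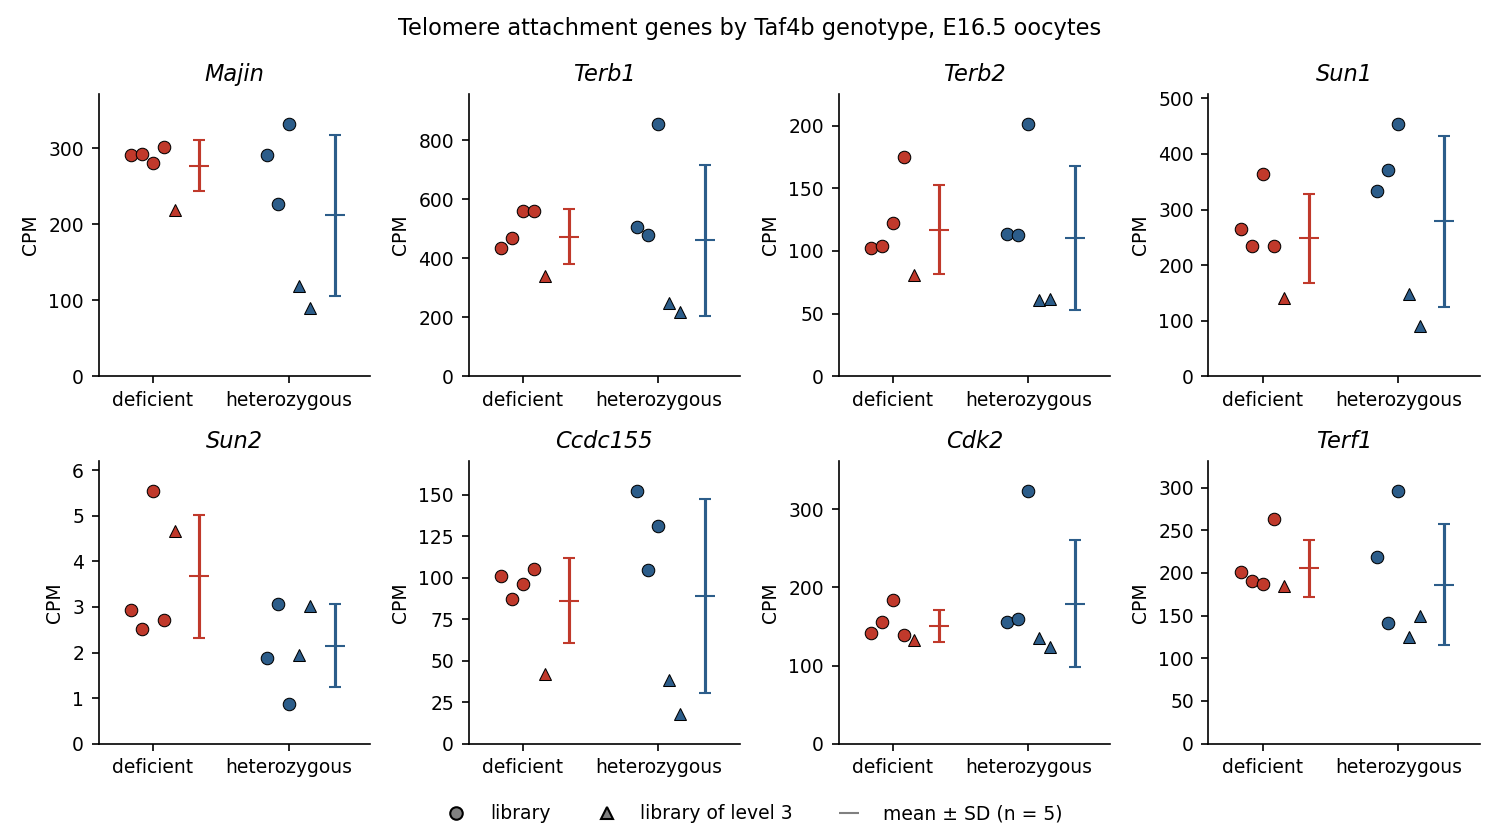
CPM of each gene in each library, with Taf4b-deficient libraries (red) left of Taf4b-heterozygous libraries (blue); triangles mark deficient 5, the library labelled heterozygous 4 and heterozygous 5 (level 3), and bars give the mean ± SD (n = 5). In Majin, Terb1, Terb2, Sun1, Ccdc155 and Cdk2 the triangles are the lowest libraries of each genotype, and in all 8 genes the genotypes overlap.

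Among the bridge genes, Sun1 (ENSMUSG00000036817, chromosome 5, 139200637 to 139249840, plus strand) encodes the inner membrane protein that binds attached telomeres. It was at 265, 234.5, 364, 235 and 142 CPM in deficient 1 to 5, and at 333, 370.4, 454, 149 and 89.7 CPM in heterozygous 1 to 5. Libraries of level 3 were the lowest of each genotype. The log2 fold change was -0.17 ± 0.39 (SE; 95% interval -1.01 to 0.67; edgeR adjusted p = 0.855). Without level 3 it was -0.49, with litter date in the model 0.17, and without heterozygous 3 0.071.

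Ccdc155 (ENSMUSG00000038292, chromosome 7, 45183624 to 45204892, minus strand) encodes KASH5, which links SUN1 to dynein. In deficient 1 to 5 it was at 101, 86.9, 96.0, 105 and 41.9 CPM, and in heterozygous 1 to 5 at 152, 105, 131, 38.7 and 17.8 CPM. It was the most variable of the 8 genes, with an SD of 0.97 in log2 CPM over the 10 libraries, larger than that of 96.4% of 1969 genes at a like level. The highest library held 8.56 times the CPM of the lowest. Its log2 fold change was -0.04 ± 0.47 (SE; 95% interval -1.05 to 0.96; edgeR adjusted p = 0.972), and on log2(TPM + 1) it turned to 0.15, so it had no settled direction. The log2 difference was -0.32 within litter date 1, 0.36 within date 2 and 1.896 within date 3, each from 1 or 2 libraries per genotype.

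Sun2 (ENSMUSG00000042524, chromosome 15, 79724070 to 79742536, minus strand) encodes the other widely expressed SUN protein. Its counts were 41 to 119 per deficient and 20 to 66 per heterozygous library, so counting error is part of its spread. An opposite-strand transcript, Gm16575, overlaps it by 2225 bases at a mean of 0.352 CPM. It was at 2.93, 2.52, 5.54, 2.71 and 4.66 CPM in deficient 1 to 5, and at 1.87, 3.07, 0.865, 1.94 and 3.02 CPM in heterozygous 1 to 5. Only deficient 3 and deficient 5 lay above all heterozygous libraries, and all 5 deficient libraries lay above the heterozygous median of 1.94 CPM. In TPM, 3 of 5 lay above the heterozygous median of 0.553 TPM. The means were 3.67 ± 1.35 CPM in deficient and 2.15 ± 0.919 CPM in heterozygous libraries. The log2 fold change, 0.77 ± 0.38 (SE; 95% interval -0.04 to 1.58), had the smallest p of the 8 genes (edgeR unadjusted p = 0.0605, adjusted p = 0.321). It was positive in all 25 alternatives that kept the gene, from 0.25 to 1.00, past the threshold in none of them, and by litter date it was 0.28, 1.46 and 0.23. The ratio of Sun1 to Sun2 TPM ran from 23.3 to 71.4 in deficient and from 22.7 to 402 in heterozygous libraries.

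**Figure D3:**
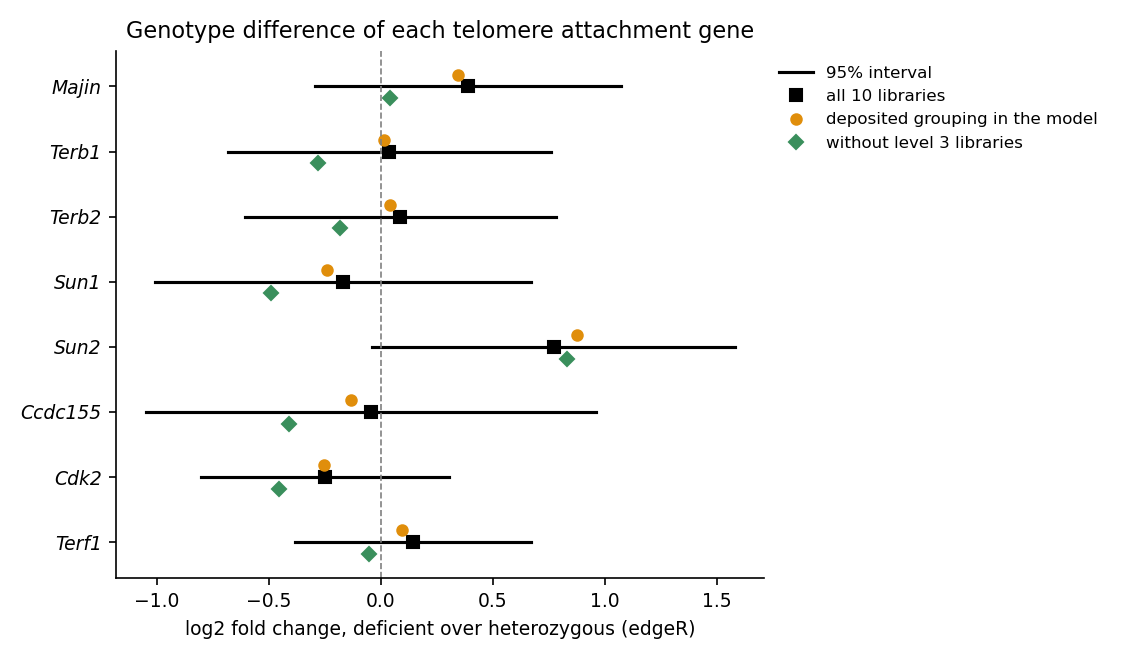
Log2 fold change of each gene, deficient over heterozygous, by edgeR with its 95% interval (black), with the grouping as a term (orange circles) and without the libraries of level 3 (green diamonds). Every interval holds 0, and without level 3 Majin is at 0.04 and Terb1, Terb2 and Terf1 turn negative.

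Cdk2 (ENSMUSG00000025358, chromosome 10, 128697939 to 128705031, minus strand) encodes the kinase found at meiotic telomeres. It was at 142, 156, 184, 139 and 132 CPM in deficient 1 to 5, and at 155, 159.6, 323, 135 and 124 CPM in heterozygous 1 to 5. Heterozygous 3 stood far above the other heterozygous libraries, which lay within or near the deficient range. In TPM its lowest libraries were deficient 4 (24.95) and heterozygous 1 (28.23), not those of level 3. The log2 fold change was -0.25 ± 0.26 (SE; 95% interval -0.80 to 0.30; edgeR adjusted p = 0.645), and 0.07 without heterozygous 3. Cdk2 overlaps Pmel on the opposite strand by 837 bases. Pmel had a mean of 32.9 CPM, and no source used here gives the strand setting of the counting, so reads of the shared stretch cannot be told apart.

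Terf1 (ENSMUSG00000025925, chromosome 1, 15805646 to 15844052, plus strand) encodes TRF1, the shelterin subunit that binds telomere repeats and TERB1. It was at 202, 191, 187.5, 264 and 184 CPM in deficient 1 to 5, and at 219, 141, 296, 125 and 150.1 CPM in heterozygous 1 to 5. Heterozygous 2, the library labelled heterozygous 4 and heterozygous 5 lay below all deficient libraries, and heterozygous 3 above them. The log2 fold change was 0.14 ± 0.24 (SE; 95% interval -0.38 to 0.67; edgeR adjusted p = 0.802), and by litter date 0.20, -0.02 and 0.55. It was 0.030 without the library labelled heterozygous 4 and 0.37 without heterozygous 3. With an SD of 0.39 in log2 CPM over the 10 libraries, Terf1 was the steadiest of the 8 genes, followed by Cdk2 at 0.40.

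The authors' deposited table gives an adjusted p under 0.05 to 6.55% of the genes with an adjusted p, and to 0 of the 8. Its log2 fold changes, with its own standard errors, are 0.32 (0.23) for Majin, -0.013 (0.22) for Terb1, 0.014 (0.22) for Terb2, -0.26 (0.23) for Sun1, 0.87 (0.37) for Sun2, -0.16 (0.26) for Ccdc155, -0.28 (0.23) for Cdk2 and 0.07 (0.23) for Terf1. Among the 8, Sun2 has the smallest p in the authors' deposited DESeq2 table, 0.0203 unadjusted and 0.144 adjusted, from the same counts.

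For each gene the range among heterozygous libraries was wider than the difference between the genotype means. All 8 genes were below their own mean over the libraries in the library labelled heterozygous 4, and all but Sun2 were so in deficient 5 and heterozygous 5. In log2 CPM relative to each gene's mean, the median of the 8 genes was -0.31 in deficient 5, -0.89 in heterozygous 5 and -0.74 in the library labelled heterozygous 4. It was 0.87 in heterozygous 3, where 7 of 8 were above their mean and Sun2 was at its lowest. In the other 6 libraries it lay between -0.0040 and 0.39, and the median over all genes tested lay between -0.04 and 0.04 in every library. By the SD of log2 CPM, heterozygous libraries were the more variable genotype for 8 of 8 genes, against 76.3% of all genes tested. In CPM itself Sun2 had the larger SD in deficient libraries, 1.35 against 0.919.

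**Figure D4:**
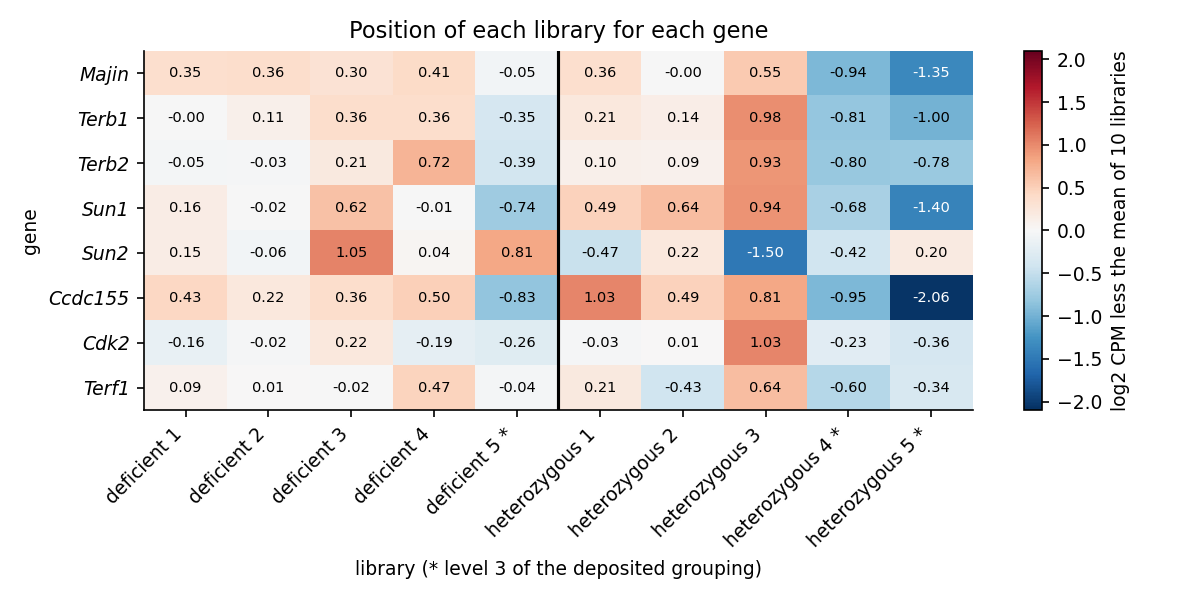
Log2 CPM of each gene (rows) in each library (columns, deficient left of heterozygous) less that gene's mean over the 10 libraries; stars mark level 3 libraries. Ccdc155 reaches -2.06 in heterozygous 5, and Sun2 is at -1.50 in heterozygous 3, where the 7 other genes are between 0.55 and 1.03.

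Other values moved with these libraries. Stra8, needed for germ cells to enter meiosis, had 629.7, 415, 447, 882 and 156 CPM in deficient 1 to 5, and 965, 221, 237, 56.3 and 10.3 CPM in heterozygous 1 to 5. Rec8, a meiotic cohesin subunit, was at 11.0 CPM in deficient 5, 2.34 CPM in heterozygous 5 and 7.001 CPM in the library labelled heterozygous 4, against 10.4 to 53.1 CPM in the others. Both were lowest of their genotype in the libraries of level 3, as were Majin, Terb1, Terb2, Sun1, Ccdc155 and, in CPM only, Cdk2. Other meiosis genes were mixed. Rad21l shared the pattern, with 38.0 CPM in deficient 5 and 78.5 to 106 CPM in deficient 1 to 4. Its values of 27.3 (heterozygous 5) and 28.3 (labelled heterozygous 4) stood against 59.6 to 89.7 CPM in heterozygous 1 to 3. Smc1b was lowest in the same heterozygous libraries (1416 and 1251), but deficient 3 (1696) lay below deficient 5 (1821). Hormad1, an axis protein gene, did not share it. It was at 784 CPM in deficient 5, above deficient 1 to 3, and at 658 CPM in heterozygous 5, above heterozygous 2 and 3. Summed TPM of germ cell markers, a scale other than the CPM above, was highest in heterozygous 5 (2270.0) and the library labelled heterozygous 4 (1944). Deficient 5, also of level 3, was at 1323 TPM. TPM stands nearer to CPM in some libraries than in others. Majin had 115 TPM and 119 CPM in the library labelled heterozygous 4, and 80.3 TPM and 89.4 CPM in heterozygous 5. In heterozygous 1 it had 202.5 TPM and 291 CPM. Ranks of libraries in TPM and in CPM thus cannot be compared directly. In CPM, Ddx4 and Dazl of the germ cell list were lowest in deficient 5 (388 and 1224). Their highest libraries were heterozygous 3 for Ddx4 (874.5) and heterozygous 1 for Dazl (2734). Heterozygous 3, where most of the 8 genes were highest, had the lowest summed TPM of stroma markers, 23.6, the lowest share of counts on mitochondrial genes, 0.854%, and counts on 25067 genes, the fewest of all libraries. The part of these differences in the values of the 8 genes was not tested.

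Spdya, which encodes Speedy A, the activator of CDK2 at telomeres, was at 328, 363.5, 286, 443 and 201 CPM in deficient 1 to 5, and at 437, 254, 334, 134 and 99.3 CPM in heterozygous 1 to 5. The libraries of level 3 were the lowest of each genotype here too. Its log2 fold change was 0.37 ± 0.36 (SE; edgeR adjusted p = 0.637).

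Around the 8 genes, 6 lists of the wider pathway held 102 tested genes, and edgeR called 0 of them in either direction, with adjusted p from 0.133 to 0.997. An unadjusted p under 0.05 was found for 18 of them (17.6%), near the 16.6% of all genes tested. In CPM the genotypes did not overlap in 4 of them (3.92%), near the 3.53% of all genes, namely Terf2ip, Tnks2, Nde1 and Pkmyt1. Without heterozygous 1, edgeR called 3.07% of all genes (1.42% higher, 1.65% lower), Lemd3 as higher and Nde1 as lower among them. DESeq2 called 3.13% of all genes (1.09% higher, 2.04% lower), with Nde1 and Pkmyt1 as lower, and limma voom with quality weights called 2.65% (1.36% higher, 1.29% lower), with Pkmyt1 as lower and Dync1h1 and Lemd3 as higher. When the grouping was a term of the edgeR model, 0.54% of all genes were called (0.369% higher, 0.171% lower) and none of the 102.

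Of the other shelterin subunits, 3 of 6 had a negative log2 fold change, with a median of -0.24. Terf2ip encodes RAP1, the partner of TRF2. It was at 31.3, 30.5, 29.7, 23.7 and 31.4 CPM in deficient 1 to 5, and at 38.0, 39.7, 42.9, 45.4 and 40.4 CPM in heterozygous 1 to 5. All 5 deficient libraries lay below all heterozygous ones in CPM, though the genotypes overlapped in TPM, with a log2 fold change of -0.49 ± 0.16 (SE; edgeR adjusted p = 0.178). Acd, the gene of TPP1, had -0.91 ± 0.31 (SE; adjusted p = 0.195), and its highest library was heterozygous 3 at 219.7 CPM, against 64.9 to 99.0 CPM in the other heterozygous libraries. Pot1a, which binds the single-stranded end, had -0.47 ± 0.21 (SE; adjusted p = 0.273), while Pot1b, Terf2 and Tinf2 had 0.34, 0.23 and 0.0013, with adjusted p from 0.567 to 0.997.

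Genes of telomere length and end maintenance numbered 17, of which 7 had a positive log2 fold change, with a median of -0.06. The tankyrase gene Tnks2, whose product modifies TRF1 in human cells, was at 86.4, 90.2, 109.5, 70.1 and 70.7 CPM in deficient 1 to 5, and at 63.7, 47.6, 33.1, 53.3 and 69.4 CPM in heterozygous 1 to 5. Its deficient libraries lay above all heterozygous ones by a narrow margin in CPM, though the genotypes overlapped in TPM, with a log2 fold change of 0.68 ± 0.22 (SE; edgeR adjusted p = 0.178). Tnks, the other tankyrase gene, had 0.50 ± 0.18 (SE; adjusted p = 0.213). Dkc1, a core protein of telomerase and of small nucleolar particles, had -0.64 ± 0.23 (SE; adjusted p = 0.207).

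Genes of the nuclear envelope had a median of 0.04 over 16, with 10 positive. Lemd3, an inner membrane protein that binds lamins, had the smallest p of this list, at 60.7, 60.5, 59.0, 51.0 and 33.7 CPM in deficient 1 to 5 and 46.5, 30.6, 20.9, 22.3 and 20.9 CPM in heterozygous 1 to 5. Only deficient 5 fell within the heterozygous range, and the log2 fold change was 0.91 ± 0.26 (SE; edgeR adjusted p = 0.155). Tor1a and Sun3 had -0.74 and -1.29, both with adjusted p over 0.2. Syne1 and Syne2, the large KASH proteins of somatic cells, had 0.01 and -0.59, and the lamin genes Lmna and Lmnb1 had -0.31 and 0.04, with adjusted p from 0.450 to 0.978.

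The dynein and dynactin genes, the motor that KASH5 recruits, had a median of -0.10 over 23, with 8 positive. Dync1h1, the heavy chain, was at 160.0, 171, 187, 159.4 and 133 CPM in deficient 1 to 5, and at 89.3, 112, 143, 85.2 and 82.7 CPM in heterozygous 1 to 5. Heterozygous 3 was the only heterozygous library within the deficient range in CPM (in TPM none was), and the log2 fold change was 0.66 ± 0.19 (SE; edgeR adjusted p = 0.157). Nde1, a dynein regulator, went the other way at 8.89 to 12.4 CPM in deficient and 12.9 to 23.0 CPM in heterozygous libraries (in TPM they overlapped), with -0.79 ± 0.22 (SE; adjusted p = 0.152). Dctn3, a dynactin subunit, had -0.55 ± 0.22 (SE; adjusted p = 0.251).

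Of 20 partners and regulators of CDK2, 6 had a positive log2 fold change, with a median of -0.23. Pkmyt1, a kinase that inhibits CDK1, had the smallest p of all lists, at 44.1, 37.5, 40.4, 40.0 and 47.7 CPM in deficient 1 to 5 and 60.9, 58.9, 66.4, 71.8 and 63.0 CPM in heterozygous 1 to 5. The groups were apart in CPM and nearly touched in TPM, where the highest deficient library had 17.6 TPM and the lowest heterozygous one 17.8 TPM, with a log2 fold change of -0.61 ± 0.15 (SE; edgeR adjusted p = 0.133, and 0.0675 with the grouping as a term). Skp2 and Cdk1 had -0.58 and -0.73, with adjusted p of 0.284 and 0.289. The cyclin genes Ccne1 and Ccna1 had 0.65 and -1.19, with adjusted p of 0.416 and 0.307, and the CDK inhibitor gene Cdkn1b had -0.28, with an adjusted p of 0.845.

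The last list holds genes of the chromosome axis and synapsis, the structures between the attached ends, and 5 other meiosis genes as context (Stra8, Meioc, Ythdc2, Dmc1 and Spo11). It had a median of 0.18 over 20, of which 16 were positive and 0 had an unadjusted p under 0.05. Rec8, Rad21l and Hormad1 had the smallest p, with log2 fold changes of 0.97, 0.51 and 0.29 and adjusted p from 0.455 to 0.500. Sycp3, the axis protein, was at 1150.0 ± 145 TPM in deficient and 1463 ± 524 TPM in heterozygous libraries (SD, n = 5 each), and Smc1b, a meiotic cohesin needed to protect telomeres in mouse, at 624.6 ± 102 TPM in deficient and 547 ± 75.3 TPM in heterozygous libraries, with adjusted p of 0.644 and 0.606.

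**Figure D5:**
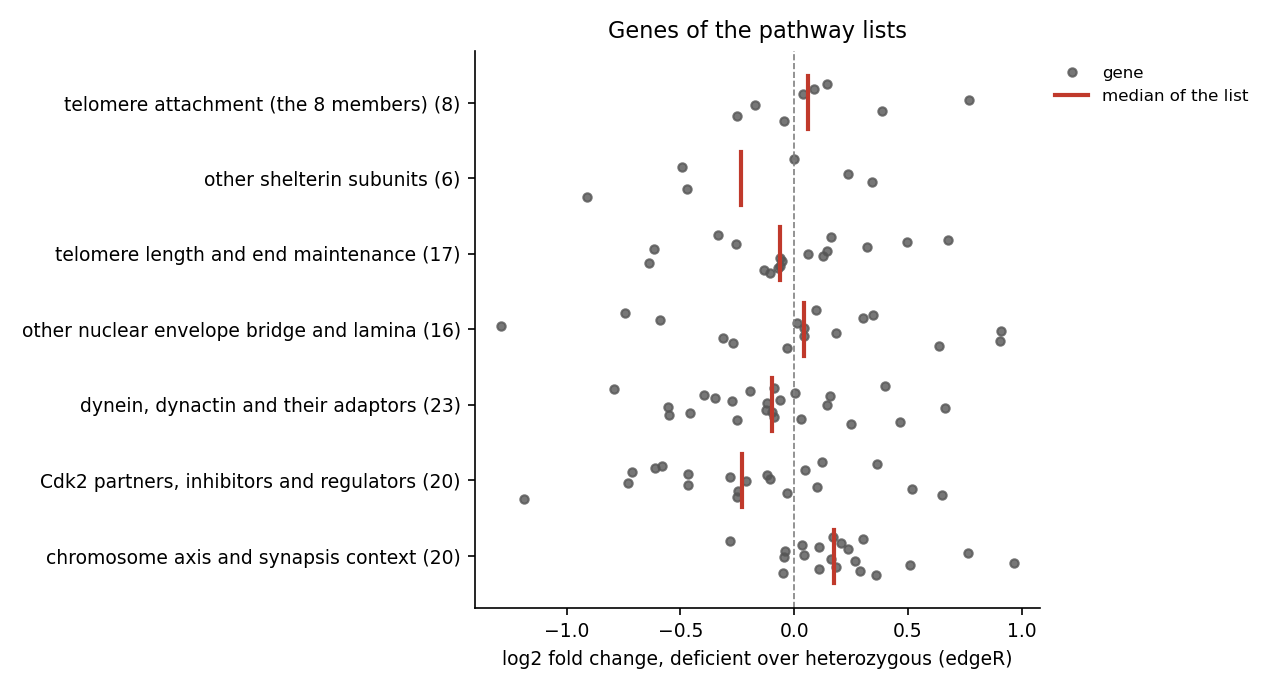
Log2 fold change, deficient over heterozygous, of each tested gene (dots) of the 8 telomere attachment genes and 6 pathway lists, with the number of genes in brackets and the median of each list in red. Medians lie between -0.24 and 0.18, and edgeR on genotype alone called no gene shown.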

How the data were processed

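The authors deposited whole-number counts per gene. The submitters' processing notes name Trim Galore 0.5.0, HISAT2 2.1.0, SAMtools 1.9, Subread 1.6.2 with featureCounts, and the build GRCm38, and no source used here gives strand or multi-mapping settings. The authors also deposited TPM from StringTie 1.3.3b, per the same notes. The authors' other table comes from DESeq2 and, per the file headers, gives each gene a signal (its mean normalized count), a log2 fold change with standard error, a score (the Wald statistic), and a raw and an adjusted p-value.

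Counts were tested with edgeR 4.0.16 (R 4.3.3), quasi-likelihood test on genotype alone, TMM scaling and edgeR's expression filter, which all 8 genes passed. P-values were adjusted by Benjamini-Hochberg over 19244 genes. CPM use TMM-scaled library sizes. A standard error is the size of the log2 fold change over the root of its F value, and intervals are 95%. The 382 genes without a symbol took 0.0632% to 0.0945% of counts. Sequences come from RefSeq. The fit was tested on simulated data, drawn independently for each gene. Those data lack the shifts that genes share within a library, so they do not show how the test behaves here.

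Alternatives were other scalings and filters, DESeq2 1.42.0, limma 3.58.1 (voom, or log2(TPM + 1) and log2(TPM + 0.1)), models with a term for litter date or for replicate number, and libraries or litter dates left out. The weight of each library in the deposited fold changes was solved for, which gave a grouping with 3 levels. DESeq2 with this grouping differed from the deposited log2 fold change by at most 0.00555 over 31181 genes, and both made 1172 calls. Its use was chosen after seeing the data. The members and lists were chosen with earlier results of these data known. Named pathway genes are the 3 with the smallest p per list and genes set by role. One symbol of the synapsis list was not matched. The genes closest in pattern to Terb1 are not reported here.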

Additional observations from a re-analysis of the deposited data

Results flagged for a closer look

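In 4 of the 16 sets of 5 libraries (8 genes in each genotype), an extreme library stood apart from the others by more than Dixon's 95% critical value of 0.71 for the gap over the range. Chance flags about 1 in 20 such sets, and the genes share their libraries, so the sets are not independent.

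In deficient 5, Majin was low at 219 CPM, while deficient 1 to 4 had 281 to 302 CPM, and Ccdc155 was low at 41.9 CPM, while deficient 1 to 4 had 86.9 to 105 CPM. Both values belong to the deficient library with the most erythroid marker RNA (summed TPM 326), and the part of that in these values was not tested. Terf1 was high at 264 CPM in deficient 4, and the rest of that genotype had 184 to 202 CPM. Cdk2 was at 323 CPM in heterozygous 3, against 124 to 159.6 CPM in the other heterozygous libraries.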

How the results depend on the processing

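The count of called genes, 0 of 19244, became 251 with no low-count filter, 649 by DESeq2, 510 by limma voom with quality weights, 104 with the grouping as a term and 1172 by DESeq2 with that grouping. It was 1 with the replicate block (Gm11815), and from 0 to 606 without single libraries, 606 without heterozygous 1 and 1 without heterozygous 2 (Gml2). In the 6 pathway lists the count of 0 became 2 by DESeq2, 3 by limma voom, 6 by DESeq2 with the grouping (Dync1h1, Lemd3 and Tnks2 higher, Nde1, Pkmyt1 and Terf2ip lower) and 0 to 2 without single libraries. The causes were not tested. Of the 8 genes, 0 were called under any of 27 alternatives.

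Of 214 values of the 8 genes under the alternatives, 31 turned in direction. Without single libraries the log2 fold change ran from 0.20 to 0.61 for Majin, 0.030 to 0.37 for Terf1, 0.56 to 0.93 for Sun2, -0.14 to 0.38 for Terb1, -0.10 to 0.41 for Terb2, -0.40 to 0.071 for Sun1, -0.31 to 0.24 for Ccdc155 and -0.36 to 0.065 for Cdk2. Without litter date 3 it was -0.10 for Terb1, -0.16 for Terb2 and -0.022 for Terf1, and without level 3 of the grouping -0.28, -0.18 and -0.053. By DESeq2 with the grouping it was -0.013 for Terb1. Sun1 was at 0.16 by limma voom, 0.17 with litter date in the model, 0.00041 with the replicate block and 0.083 without litter date 1. Ccdc155 was at 0.57 by limma voom, 0.15 on log2(TPM + 1) with or without a filter, 0.16 on log2(TPM + 0.1), 0.45 with litter date, 0.26 with the replicate block and 0.40 without litter date 1. Majin and Sun2 were positive in each alternative run, from 0.04 to 0.75 and from 0.25 to 1.00, and the TPM filter left Sun2 out.

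Nothing in the labels says that a replicate number marks a pair, though numbers 1, 3 and 5 share a litter date across genotypes. The correlations of the deviations of same-numbered libraries from the genotype means were 0.169, 0.118 and 0.593 for these and 0.0346 and -0.262 for numbers 2 and 4, so not every pair deviated together, and 1 of 5 deficient libraries correlated best with its own number. The depth limits Sun2, at 20 to 119 counts per library.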

Other observations

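Genes with a pattern like that of the telomere genes were ranked among 9158 named genes (mean log2 CPM 3 or more, leaving out predicted and Riken gene names), by the root mean square difference in log2 CPM, each gene less its own mean, over the 10 libraries. The closest to Majin were Lig1 (a DNA ligase of replication), Cab39l and Usp3, at 0.07 to 0.09 log2 units, against a median of 0.65 over all genes. For Terb2 they were Tpx2 (a spindle protein), Tpra1 and Cyp2r1, at 0.13 to 0.15, and Terb1 came 4 in rank, at 0.16. For the other telomere genes the nearest of the 8 ranked 37 (Terb1), 143 (Ccdc155), 197 (Majin), 245 (Sun1), 722 (Terf1), 1759 (Cdk2) and 6240 (Sun2). Those closest to Ccdc155 were Lmntd2, H2-D1 and Prdm9 (which marks the sites of meiotic recombination), at 0.18 to 0.21, against a median of 0.93. Genes were ranked over the same libraries, whose spread they share. Sun2 differed from every other telomere gene by at least 0.89 log2 units, the size of its smallest difference, which was with Terf1.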
